A study of Mus musculus with 4 samples.

Results

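The LPS response of neutrophils was compared between wild-type mice and mice lacking miR-125a, gene by gene, as a difference of 2 differences. For each gene the knockout response (LPS minus unstimulated, log2) was taken and the wild-type response was subtracted, so a value above 0 means a response that was higher, or less far below 0, in knockout cells. The genes described are the 8156 of 18193 named genes (44.8%) whose brightest probe set lay above a signal floor, log2 6.80, on all 4 arrays. The choice used the level alone and not the difference. At its edge, Thap3 was kept with a lowest log2 signal of 6.7971 and Fpgt was left out with 6.7970.

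The arrays hold RNA of bone marrow neutrophils, enriched with a magnetic bead kit from C57BL/6 mice of 8 weeks and cultured in RPMI 1640 medium with fetal bovine serum. The groups are unstimulated miR-125a+/+ cells, unstimulated miR-125a-/- cells, and cells of each genotype stimulated with LPS for 3 h. RNA of 3 independent experiments was pooled for each group and hybridised to 1 Affymetrix array, so there are 4 arrays, no value has a replicate, and no test was possible. The labels used here state neither the design of the deleted allele nor the time that cells without LPS spent in medium.

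Neutrophils are short-lived granulocytes that sense LPS, a cell wall component of Gram-negative bacteria, through Toll-like receptor 4. Its signal runs through adaptor proteins to NF-kB and MAP kinases, which induce cytokines, chemokines and feedback inhibitors, and through a separate adaptor to interferon regulatory factors, which induce interferon-beta and then a wide set of interferon-stimulated genes. A microRNA lowers the stability or translation of transcripts that pair with its seed. The miR-125 family is expressed in blood-forming cells and has been reported to act on inhibitors of NF-kB, on apoptosis genes and on cytokine signalling genes.

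Both arms of the deleted microRNA are shown beside the 5p arm of miR-125b, a family member encoded elsewhere, because the 5p arms share their seed. Sequences are RefSeq's for GRCm38.p6, written 5′ to 3′ with the seed, bases 2 to 8, in capitals. The miR-125a arms lie at chr17:17830817-17830840 and chr17:17830855-17830876, both on the plus strand, and miR-125b-5p of Mir125b-1 lies at chr9:41581940-41581961 on the plus strand.
mmu-miR-125a-5p: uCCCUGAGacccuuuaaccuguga
mmu-miR-125a-3p: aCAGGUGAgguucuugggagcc
mmu-miR-125b-5p: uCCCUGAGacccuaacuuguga
The first 13 bases of miR-125a-5p and miR-125b-5p are identical. Neither was measured on these arrays.

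All 4 arrays had been scaled to one trimmed mean signal, and between 37.8% and 41.5% of probe sets lay above the floor. Spaca6, the host gene of miR-125a, reached at most log2 6.24, too low to serve as a check of the genotypes. Of 18 neutrophil marker genes, 14 were matched, all 14 were among the 8156 genes, and 0 had responses that differed 2-fold. The summed level of 3 eosinophil, basophil and mast cell markers was lower on both knockout arrays: log2 10.77 against 11.82 unstimulated and 10.61 against 11.72 after LPS. The gap was similar at both times, and the difference of responses of these 3 genes had a median of 0.12. Across the 8156 genes the 2 responses had a correlation of 0.894, given as a description of genes that share the 4 arrays.

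Differences between the 2 responses were small for most genes. The median over all members was -0.02 (log2), the standard deviation across genes was 0.37, and 3905 genes (47.9%) were above 0. A response was higher in knockout cells by at least 2-fold (log2 1) for 82 genes (1.01%) and lower for 53 (0.65%), together 135 (1.66%). After quantile normalization of the same arrays the split was 62 higher and 74 lower, so the excess of higher over lower genes depended on the scaling. The calls were concentrated at low signal. When the genes were ordered by mean signal and divided into 4 equal groups, the dimmest group held 83 of the 135 calls (4.07% of its genes), the next 35 (1.72%), the third 13 (0.638%) and the brightest 4 (0.196%). Those 4 were Malat1, Hspa1b, Dusp16 and Atp5md, named here after their values were seen. Probe sets without a symbol of their own, 1636 above the floor with no name or several, were past 2-fold more often, 75 higher (4.58%) and 23 lower (1.41%).

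**Figure D1:**
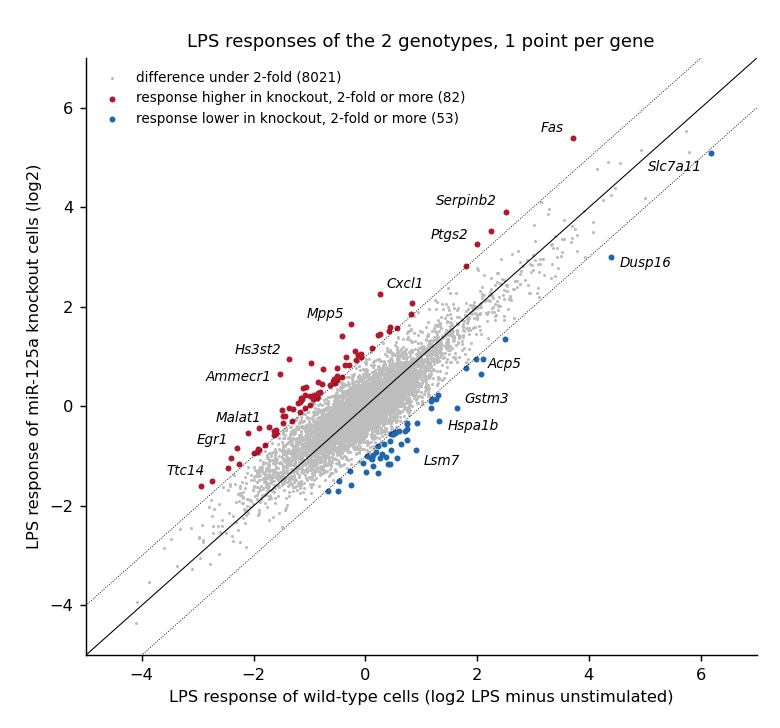
LPS response of wild-type cells (x axis) against that of knockout cells (y axis), both log2 LPS minus unstimulated, 1 point per gene; the solid line marks equal responses and the dotted lines a 2-fold difference. Most of the 8156 genes lie along the line of equal responses, with 82 genes (red) above the upper and 53 (blue) below the lower dotted line.

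Since no array was replicated, other probe sets of the same gene gave the available measure of error. For 3479 of the 8156 genes a second probe set also lay above the floor on all arrays. The 2 probe sets of a gene had the same sign of the difference for 2085 genes (59.9%), and across genes their differences had a correlation of 0.255, against 0.726 for the LPS response of either genotype. The scatter of 1 probe set, taken from the spread between the pairs, was 0.32 (log2), and it was 0.44 in the dimmest of the 4 signal groups and 0.26 in the brightest. It covers differences between probes and not between mice, cultures or pools. Of the 82 genes with the higher knockout response, 22 had a second probe set, which had the same sign in 17 and passed 2-fold in 4. Of the 53 with the lower response, 17 had one, with the same sign in 10, past 2-fold in 1 and past 2-fold the opposite way in 1. The remaining 96 called genes rested on 1 probe set. The genes called by both probe sets were Malat1, Mxd3, Phf6 and Ttc14, higher in knockout cells, and Hspa1b, lower.

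**Figure D2:**
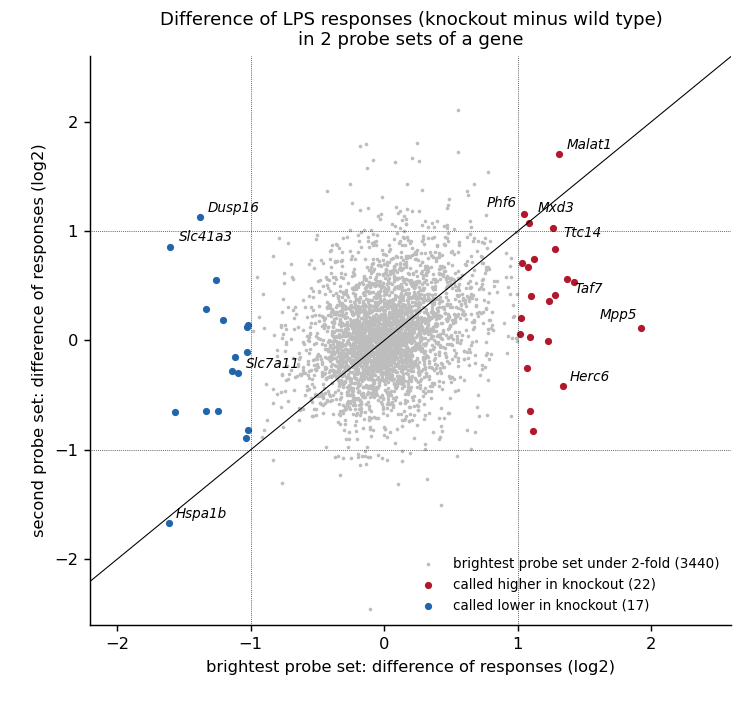
Difference of LPS responses (knockout minus wild type, log2) in the brightest probe set (x axis) and the second probe set (y axis) of 3479 genes; the solid line marks equal values and dotted lines mark 2-fold. Second probe sets of the 22 genes called higher (red) and the 17 called lower (blue) mostly lie nearer 0, while Malat1, Mxd3, Phf6, Ttc14 and Hspa1b lie past 2-fold on both axes.

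The called genes were chosen by the genotype difference after LPS minus that before it, so opposite signs at the 2 times follow in large part from the choice, and the counts are a description. Of the 82 genes with the higher knockout response, 75 had genotype differences of opposite sign at the 2 times, with a median of -0.56 (knockout minus wild type, log2) unstimulated and 0.62 after LPS. For 61 of the 82 neither genotype difference alone reached 2-fold. The genotype difference was 2-fold in unstimulated cells alone for 8, after LPS alone for 12, and at both times for 1, Ammecr1. Among all members a 2-fold genotype difference was found unstimulated in 24 higher (0.294%) and 35 lower (0.429%) genes, and after LPS in 43 higher (0.527%) and 39 lower (0.478%). The larger of the 2 differences was on the unstimulated arrays for 37 of the 82 genes and on the LPS arrays for 45.

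For the 53 genes with the lower knockout response opposite signs were found in 48, with medians of 0.53 unstimulated and -0.69 after LPS. Neither genotype difference reached 2-fold in 37 of them, 4 reached it unstimulated alone and 12 after LPS alone. The larger difference was on the unstimulated arrays for 21 and on the LPS arrays for 32. Fas and Zdhhc12 had a large genotype difference before LPS and a small one after it, and Rab3a had the reverse.

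**Figure D3:**
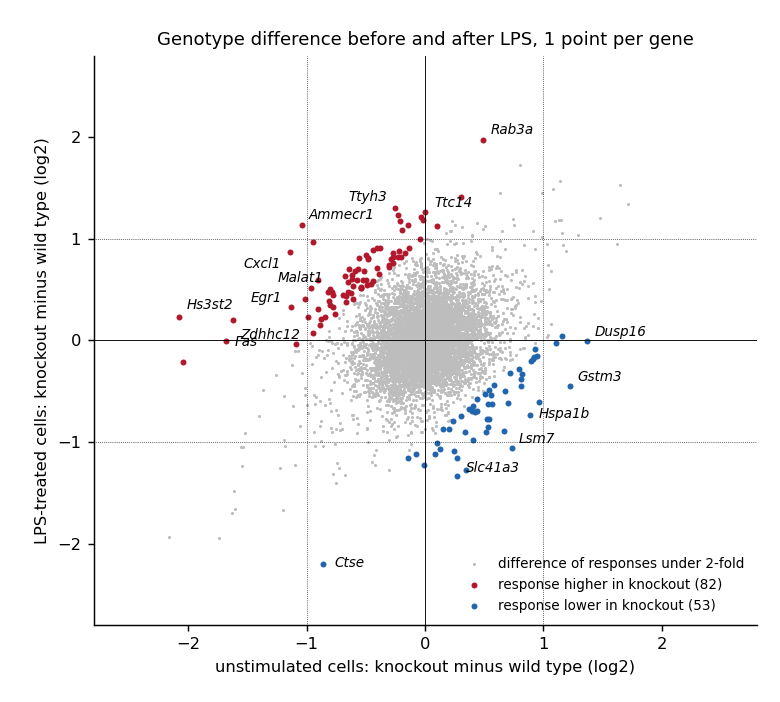
Genotype difference (knockout minus wild type, log2) in unstimulated cells (x axis) and after LPS (y axis), 1 point per gene, with dotted lines at 2-fold. Genes with the higher knockout response (red, 82) lie mostly in the upper left and those with the lower response (blue, 53) mostly in the lower right, with Fas near 0 on the y axis and Ctse below 0 on both axes.

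The called genes were chosen by the difference of the 2 responses, so the forms of their responses follow in large part from that choice. The counts of each form are a description. In the 82 genes the median response was -0.93 in wild-type and 0.33 in knockout cells, and the most frequent form was a transcript at least 2-fold lower after LPS in wild-type cells with no 2-fold response in knockout cells (32 genes, among them Egr1, Malat1, Nlrc5, Phf6 and Ttyh3). A further 14 were at least 2-fold higher after LPS in knockout cells alone, among them Cxcl1, Aqp9, Prkce and Mxd3. The response was 2-fold upward in both genotypes for 5 (Fas, Maf, Pid1, Ptgs2, Serpinb2) and downward in both for 5 (Haghl, Mir1931, Taf7, Ttc14, Zfp53), and 26 had no 2-fold response in either. In the 53 genes the medians were 0.50 and -0.69. Of these, 11 were 2-fold higher after LPS in wild-type cells alone, 17 were 2-fold lower in knockout cells alone, 3 were higher in both (Dusp16, Slc7a11, Tgif1) and 22 had no 2-fold response. For scale, 569 members (6.98%) were 2-fold higher and 760 (9.32%) 2-fold lower after LPS in wild-type cells, and 518 (6.35%) and 608 (7.45%) in knockout cells.

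Among secreted and surface mediators, the neutrophil chemoattractant Cxcl1 had the highest difference of responses. Its log2 signal was 8.11 in wild-type and 6.97 in knockout cells before LPS, and 8.37 and 9.24 after it. The knockout array was thus the lower before LPS and the higher after it, with an increase of 4.81-fold in knockout against 1.19-fold in wild-type cells and a difference of 2.01. The probe set carries the suffix of sets that can cross-hybridise, and the other probe sets of Cxcl1, below the floor on at least 1 array, gave differences of 0.69 and -0.61. Serpinb2, a serine protease inhibitor strongly inducible in myeloid cells, stood at 7.71 and 7.49 on the unstimulated wild-type and knockout arrays and at 10.22 and 11.39 after LPS. Its gap was on the LPS arrays, and its induction was 5.71-fold in wild-type and 14.97-fold in knockout cells (difference 1.39). Ptgs2, the inducible cyclooxygenase that makes prostaglandin precursors, stood at 9.86 and 9.07 unstimulated and at 11.86 and 12.34 after LPS. It was induced 4.01-fold in wild-type and 9.62-fold in knockout cells (difference 1.26), and a further Ptgs2 probe set below the floor gave 0.44.

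The promoter of Cxcl1 held the NF-kB motif searched for, GGGA, any base, TTTCC on either strand, 71 bases before the annotated start. The window of 300 bases, 250 before and 50 after the start, is shown because Cxcl1 had the highest value among the mediators. That value rests on the probe set that can cross-hybridise, and the other probe sets of Cxcl1 disagreed in sign. The window lies at chr5:90890995-90891294 on the plus strand (RefSeq, GRCm38.p6), and the match is in capitals.
Cxcl1 promoter: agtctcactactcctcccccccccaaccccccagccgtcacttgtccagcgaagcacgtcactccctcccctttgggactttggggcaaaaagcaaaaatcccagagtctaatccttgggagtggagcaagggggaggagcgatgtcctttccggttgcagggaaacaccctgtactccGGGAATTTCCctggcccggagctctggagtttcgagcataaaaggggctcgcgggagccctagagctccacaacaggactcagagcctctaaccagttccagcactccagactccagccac
The motif occurred in windows of 0.466% of all genes and 0.592% of the 6753 members with a window. It was found in 3 of 63 genes with the higher knockout response (4.76%; Cxcl1, Rabgap1 and Rbm19) and in 0 of 45 with the lower. These are descriptions of the letters in the windows.

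Fas, the death receptor of the tumour necrosis factor receptor family, had its genotype gap before LPS. Its log2 signal was 8.87 in unstimulated wild-type and 7.19 in unstimulated knockout cells, and 12.59 on both LPS arrays. The end level was the same to the second decimal, so the inductions of 13.1-fold and 42.2-fold (difference 1.68) differ by the starting level. Fas has a single probe set here. Of 22 measured apoptosis regulators Fas was the 1 called, 13 were above 0 and the median was 0.04. Bbc3, which encodes the pro-apoptotic protein Puma, lay at the other end at -0.84, with 8.07 and 8.34 unstimulated and 9.35 and 8.78 after LPS. Casp4, the inflammatory caspase that binds cytosolic LPS, stood at 10.57 and 9.97 unstimulated and at 9.88 and 9.97 after LPS, a difference of 0.68.

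None of the inflammatory cytokines above the floor on all arrays was called, against 1.66% of all members. At that share few calls could arise among 12 genes, so the absence of calls says little. Tnf, a main LPS-induced cytokine, stood at 10.82 and 10.68 unstimulated and at 13.76 and 13.54 after LPS, a difference of -0.08. Il1rn, the interleukin-1 receptor antagonist, had a difference of 0.05 and Il12a, a subunit of interleukin-12, -0.08. Il1b, 12.45 and 12.22 unstimulated and 15.07 and 15.29 after LPS, had 0.45, and Il18, 8.39 and 8.32 unstimulated and 9.83 and 10.39 after LPS, had 0.63. Of 12 measured inflammatory cytokines 0 were called, 8 were above 0 and the median was 0.10. Among 27 cytokines listed 24 were matched, and those under the floor on an array are not members. Il6 was at 6.92 and 5.24 unstimulated and at 12.40 and 12.87 after LPS, and Il1a at 4.25 and 6.05 and then 11.75 and 11.27, so at least 1 starting level of each lay under the floor and no difference was taken.

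Chemokine genes lay on both sides of 0. In the group of neutrophil-attracting CXC chemokines with their receptor, 1 of 5 was called (Cxcl1). Cxcl2 stood at 12.88 and 12.12 unstimulated and at 14.90 and 14.87 after LPS, a difference of 0.73. Cxcl3 had the opposite sign, at 7.52 and 7.07 unstimulated and 10.01 and 8.80 after LPS, a difference of -0.75. The receptor Cxcr2 had -0.48 and Pf4, a platelet chemokine, -0.55, which left the group's median at -0.48. Its sign changed with the floor at the 75th percentile (2 members left) and with no floor (7 members). Among 7 other chemokine genes, 5 were above 0 and the median was 0.31. Ccl3 was at 11.11 and 10.57 unstimulated and at 15.27 and 15.34 after LPS (difference 0.62), Ccl4 had 0.34, Ccl6 0.78 with a second probe set at 0.10, and Cxcl10 -0.20. The median of this group changed sign when no floor was used.

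Of the 146 genes at least 4-fold higher after LPS on average, 5 were called higher in knockout cells and 2, Slc7a11 and Dusp16, lower. Among all members the shares were 1.01% higher and 0.65% lower. Slc7a11, the cystine transporter subunit, stood at 7.02 and 7.92 unstimulated and at 13.21 and 13.01 after LPS. Its induction was 72.7-fold in wild-type and 34.1-fold in knockout cells (difference -1.09), the gap lay mostly before LPS, and the second probe set gave -0.30. The following genes had values below 0 that were not called. Icam1, the endothelial and leukocyte ligand of LFA-1, stood at 7.89 and 8.32 unstimulated and 13.69 and 13.45 after LPS (difference -0.67). Pim2, a survival kinase, had -0.82 from 6.92 and 7.42 unstimulated and 11.93 and 11.61 after LPS. Map3k8, the kinase that couples NF-kB activation to ERK, stood at 9.17 and 9.83 unstimulated and at 13.10 and 12.84 after LPS (difference -0.93). Tsc22d1, a transcriptional regulator with 3 probe sets above the floor, had a mean of -0.73, between -0.79 and -0.64, and is named after its values were seen.

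Median differences by size of response were small, and counts of called genes did not always point the same way. Over all 8156 members, 82 (1.01%) were called higher in knockout cells and 53 (0.65%) lower. For 510 genes at least 2-fold higher after LPS on the average of both genotypes, the median difference was -0.08 and 209 (41.0%) were above 0, with 10 genes called higher in knockout cells and 7 called lower. Among the 146 at least 4-fold higher, the median was -0.15 and 46 (31.5%) were above 0, although 5 were called higher and 2 lower. For 642 genes at least 2-fold lower after LPS, the median was 0.19 and 430 (67.0%) were above 0, with 18 genes called higher in knockout cells and 2 called lower. In the remaining 7004 genes the median was -0.03. The second probe sets gave 0.21 for the lower genes, with 181 of 248 (73.0%) above 0, and -0.00 for the higher genes, with 108 of 219 (49.3%) above 0. For the genes at least 4-fold higher the second probe sets gave -0.06, with 22 of 57 (38.6%) above 0, so the tendency was weaker there for induced genes. Within the 4 signal groups the median of the lower genes ran from 0.12 in the dimmest to 0.21 in the brightest. All these genes share the same 4 arrays and are not independent of each other.

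Of 23 measured transcription factors of the immediate-early and AP-1 list, 1 was called, 13 were above 0 and 10 below, and the median was 0.09. The called gene Egr1, a zinc finger factor induced within minutes by many stimuli, stood at 11.09 on the unstimulated wild-type array and 9.95 on the unstimulated knockout array, and at 8.80 and 9.12 after LPS. The wild-type unstimulated array was the highest of the 4, and the signal was 4.89-fold lower after LPS in wild-type and 1.78-fold lower in knockout cells (difference 1.46). Fos, an AP-1 subunit, had the same order, with 13.75 and 13.27 unstimulated and 10.28 and 10.61 after LPS (0.81), as did Fosl1 at 8.78 and 8.36 unstimulated and 7.77 and 8.24 after LPS (0.90). Atf3, a stress-inducible repressor, had 0.50 and Jun 0.36. Klf10, a TGF-beta inducible factor, lay opposite at -0.63, with 11.51 and 12.26 unstimulated and 10.07 and 10.19 after LPS. Fosb and Egr3, below the floor after LPS, had similar genotype gaps at both times. Fosb was at 10.30 and 9.92 unstimulated and at 5.90 and 5.48 after LPS, and Egr3 at 7.87 and 7.14 and then 6.14 and 5.39.

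Other regulators were called in each direction. Maf, a leucine zipper factor of macrophages and lymphocytes, was induced in both genotypes, from 7.77 to 10.01 in wild-type and from 7.20 to 10.72 in knockout cells (difference 1.27). Mxd3, a MAX-binding repressor, was at 9.76 and 8.89 unstimulated and at 10.19 and 10.40 after LPS (difference 1.08). Its second probe set gave 1.08 too, and the third, the dimmest, 0.27. Smad7, an inhibitor of TGF-beta signalling, stood at 8.46 and 9.18 unstimulated and at 8.95 and 8.63 after LPS, a difference of -1.04 with -0.89 in its second probe set. Tgif1, a corepressor of the same pathway, had -1.15 and Acvr1b, an activin receptor, -1.09. Another Acvr1b probe set, below the floor, gave 1.53, the opposite sign. Smad7, Tgif1 and Acvr1b were picked out after the values were seen.

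Dusp16, a phosphatase of the JNK kinases, had opposite values in 2 probe sets. Its brightest probe set gave 9.11 and 10.48 unstimulated and 13.50 and 13.49 after LPS, so the genotypes stood apart before LPS and coincided after it (difference -1.38). The second probe set gave 1.13, past 2-fold the other way, with a wild-type response of -0.88 and a knockout response of 0.25. No direction can be given for Dusp16. Of 16 MAP kinase phosphatases and RNA-decay factors it was the 1 called. Of 25 MAP kinase cascade genes 0 were called, and the list had a median of -0.19 in the brightest and 0.25 in the second probe sets of 18 genes. Braf, a kinase upstream of ERK, lay above 0 in its 4 probe sets above the floor (0.79, 0.91, 0.16 and 0.22).

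Of 21 measured NF-kB subunits and feedback regulators 0 were called, against 1.66% of all members, a share at which few calls could arise among 21 genes. Of the 21, 7 were above 0 and the median was -0.09, from 0.70 for Tank to -0.45 for Nfkbid. Relb and Tnip2 lay under the floor on at least 1 array and are not members. Relb was at 5.02 and 7.34 unstimulated and at 12.07 and 12.18 after LPS, and no difference was taken. Nfkb2, the p100 precursor subunit, stood at 7.59 and 7.66 unstimulated and at 11.49 and 11.58 after LPS, a difference of 0.02 with -0.89 in its second probe set. Tnfaip3, which encodes the deubiquitinase A20 and is a reported miR-125 target, stood at 10.82 and 10.95 unstimulated and at 13.80 and 13.79 after LPS, a difference of -0.15. The second probe set of Tank gave -0.49, so its sign is not settled. Of 21 Toll-like receptor signalling genes 0 were called, and their median was -0.01.

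Reported targets of the miR-125 family lay on both sides of 0. Of 29 measured members of this list 0 were called, against 1.66% of all members. Few calls could arise among 29 genes at that share, so this count says little about the targets. Of the 29, 15 were above 0 and the median was 0.04, a sign that changed under 2 alternatives. Stat3, a transcription factor of cytokine signalling, stood at 12.42 and 12.13 unstimulated and at 11.65 and 11.47 after LPS, a difference of 0.10 with -0.37 and -0.41 in its other probe sets. Socs3, its feedback inhibitor, stood at 11.39 and 11.04 unstimulated and at 13.58 and 13.18 after LPS, a difference of -0.06. The lowest were Bbc3, given above, and Prdm1, a transcriptional repressor, at -0.55, and the highest was Klf13 at 0.37. No transcript sequences were used here, so seed sites were not counted.

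**Figure D4:**
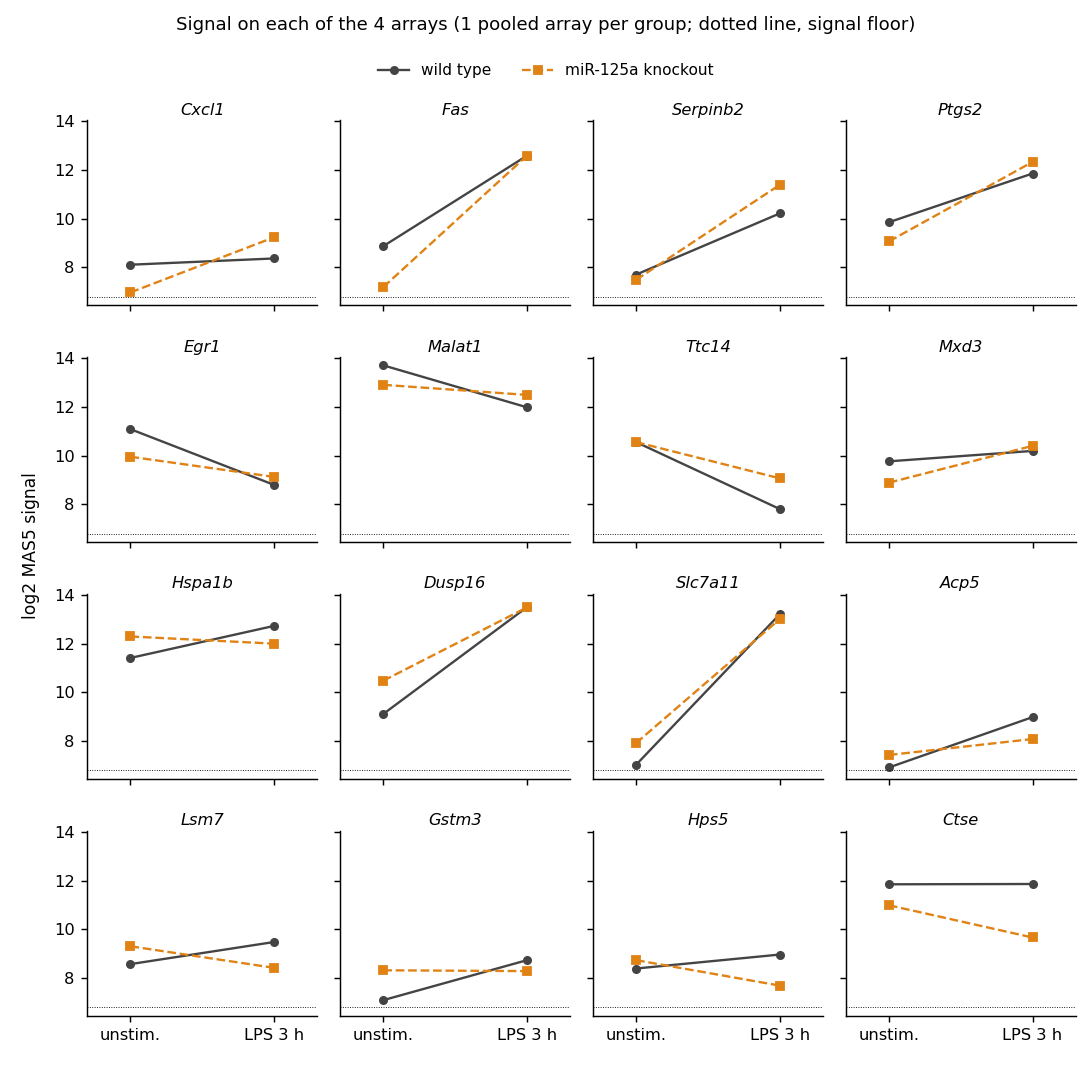
Log2 MAS5 signal of 16 named genes on the 4 arrays, unstimulated and after 3 h of LPS, for wild-type (grey circles) and knockout (orange squares) cells; each point is 1 pooled array and the dotted line is the floor at 6.80. Lines cross for Cxcl1, Ptgs2, Egr1, Malat1, Mxd3, Hspa1b, Lsm7, Gstm3, Hps5 and others, whereas for Fas and Dusp16 the genotypes differ before LPS and meet after it.

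Interferon-stimulated genes lay on balance above 0. Of 41 measured antiviral effectors 28 were above 0, the median was 0.17, and 1 was called. Over 8 alternatives the median ranged from 0.13 to 0.19, and in the second probe sets of 15 genes it was 0.16. Ifit1, which binds foreign RNA ends, was at 8.05 and 7.46 unstimulated and at 11.20 and 11.57 after LPS, a difference of 0.97. The knockout array was the lower before LPS and the higher after it, and the same order held for Ifit2 (0.74; 8.69 and 8.20, then 9.51 and 9.76) and Rsad2, the antiviral enzyme viperin (0.64; 9.77 and 9.58, then 12.78 and 13.23), whose second probe set gave 0.98. Usp18, the protease that removes ISG15, had 0.58. Dhx58, an RNA sensor, had 0.76 and Oasl1 0.68, and for both the gap lay before LPS, with LPS arrays at 9.37 and 9.34 for Dhx58. Herc6, an ISG15 ligase, was the called gene (1.34; 8.59 and 8.09 unstimulated, 7.74 and 8.59 after LPS), but its second probe set gave -0.42. Members below 0 included Znfx1 at -0.55, Ifitm1 at -0.50, Oasl2 at -0.48 and Cmpk2 at -0.41.

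The interferon-inducible GTPases, which attack the vacuoles of intracellular microbes, had the highest list median. Of 6 measured members 5 were above 0 and 0 were called, with a median of 0.55 and medians of the genotype difference of -0.26 unstimulated and 0.26 after LPS. Gbp7 stood at 10.85 and 10.46 unstimulated and at 9.28 and 9.87 after LPS. It was below 0 in both genotypes, less so in knockout cells, and both of its probe sets gave 0.99. Gbp2 had 0.82 with a second probe set at 0.10, Igtp 0.58, Gbp3 0.51, Irgm2 0.19 and Irgm1 -0.31. Without probe sets that are shared or can cross-hybridise the median of the 5 remaining genes was 0.19. Of 16 measured factors that transmit the interferon signal, 7 were above 0 and the median was -0.05, with Tyk2 at -0.50 and Irf1 at -0.38.

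Promoters of Ifit1 and Gbp7 are shown because they are the members of the 2 interferon lists with the highest values that held in every probe set above the floor. Matches to GAAA, any 2 bases, GAAA, the core of the interferon-stimulated response element, searched on both strands, are in capitals. The windows lie at chr19:34640639-34640938 and chr3:142530086-142530385, both on the plus strand (RefSeq, GRCm38.p6).
Ifit1 promoter: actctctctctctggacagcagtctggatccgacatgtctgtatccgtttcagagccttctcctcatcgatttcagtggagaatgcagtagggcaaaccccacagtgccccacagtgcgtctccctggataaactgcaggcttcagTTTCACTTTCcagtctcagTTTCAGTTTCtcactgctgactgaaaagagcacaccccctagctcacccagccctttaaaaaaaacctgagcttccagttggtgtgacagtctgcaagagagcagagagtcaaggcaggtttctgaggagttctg
Gbp7 promoter: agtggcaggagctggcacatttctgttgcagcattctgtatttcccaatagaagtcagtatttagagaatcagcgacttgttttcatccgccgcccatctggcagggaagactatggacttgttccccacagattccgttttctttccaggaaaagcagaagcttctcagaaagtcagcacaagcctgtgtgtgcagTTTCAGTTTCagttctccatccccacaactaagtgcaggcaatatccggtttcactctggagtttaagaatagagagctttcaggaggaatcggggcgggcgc
The matches began 104 and 85 bases before the start of Ifit1 and 53 bases before that of Gbp7. The motif was in the windows of 3.99% of all genes and 3.91% of members, and in 14 of 33 antiviral effectors (42.4%) and 6 of 6 of the GTPases. It was in 15 of 26 genes of both lists that lay above 0 (57.7%) and in 5 of 13 that lay below 0 (38.5%). Among all called genes it was in 4 of 63 with the higher knockout response (6.35%) and 1 of 45 with the lower (2.22%).

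Nlrc5, the activator of MHC class I genes and itself interferon-inducible, had a difference of 1.31. It stood at 8.81 and 8.13 unstimulated and at 7.66 and 8.30 after LPS, and was the 1 called gene among 38 proteasome and antigen-processing genes, whose median was -0.02. Inflammasome genes had a median of 0.10, with 10 of 13 above 0 and 0 called. Their highest values were those of Casp4, given above, and of Naip5, a sensor of bacterial flagellin, at 0.65 (9.40 and 9.55 unstimulated, 8.08 and 8.88 after LPS).

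Chaperone and stress-response genes lay below 0. Hspa1b, which encodes the inducible chaperone Hsp70, stood at 11.41 on the unstimulated wild-type array and 12.30 on the unstimulated knockout array, and at 12.73 and 12.002 after LPS. The knockout signal was the higher before LPS and the lower after it, 2.49-fold higher with LPS in wild-type and 1.23-fold lower in knockout cells. All 3 of its probe sets gave nearly the same difference, -1.61, -1.63 and -1.67. Hspa1a, its near-identical neighbour, had -0.50, and probes may not separate the 2 genes fully. Of 18 measured heat shock proteins and chaperones 1 was called, 3 were above 0 and the median was -0.20, or -0.19 without Hspa1b. Bag3, a co-chaperone, had -0.65, Hsph1 -0.54 and Hspe1 -0.47, and Hspa9, the mitochondrial Hsp70, lay opposite at 0.49. The list's genotype difference had a median of 0.33 unstimulated and 0.07 after LPS, so knockout cells stood above wild-type cells before LPS.

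Genes of the unfolded protein and integrated stress responses had the same form. Of 24 members 0 were called, 4 were above 0 and the median was -0.24, from -0.27 to -0.22 over 8 alternatives. Second probe sets of 12 had a median of -0.23, and 11 had the same sign as the first. The genotype difference had a median of 0.30 unstimulated and 0.05 after LPS. Herpud1, a component of endoplasmic reticulum protein degradation, stood at 11.54 and 12.02 unstimulated and at 12.87 and 12.57 after LPS, a difference of -0.78 with -0.61 in the second probe set. Manf, a secreted stress factor of the endoplasmic reticulum, had -0.47, Chac1, a glutathione-degrading enzyme, -0.45, and Creld2 -0.41. Pdia4 and Pdia6, disulfide isomerases, were higher in unstimulated knockout cells (9.46 against 8.58 and 11.49 against 10.76) and had -0.33 and -0.32. Atf6 is a case of disagreement, with -0.53, 0.40 and 0.01 in its 3 probe sets. For both stress lists single members were mostly within the scatter of 1 probe set, and the count of members below 0 is the measurement given.

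Several transcripts lower after LPS in wild-type cells had a difference above 0 in every probe set above the floor. Malat1, an abundant nuclear non-coding RNA, stood at 13.71 and 12.91 unstimulated and at 11.98 and 12.49 after LPS, 3.30-fold lower in wild-type and 1.33-fold lower in knockout cells (difference 1.31). All 6 of its probe sets above the floor had a difference above 0, from 0.29 to 2.28, and in 2 of them the knockout response itself was slightly above 0 (0.04 and 0.27). Ttc14, which encodes a tetratricopeptide repeat protein, stood at 10.55 on both unstimulated arrays and at 7.80 and 9.07 after LPS, so its gap lay after LPS. Its 4 probe sets gave values from 0.75 to 1.26. Phf6, a chromatin-associated zinc finger protein, stood at 8.95 and 8.82 unstimulated and at 7.04 and 7.96 after LPS, with 1.05 and 1.15 from its 2 probe sets, and its knockout response was 0.20 in the second. Atrx, a chromatin remodeller, stood at 12.49 and 12.23 unstimulated and at 8.89 and 9.39 after LPS, with 0.59, 0.76 and 1.15 over 3 probe sets.

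Averages were taken over 3 or more probe sets. Of 1330 genes with at least 3 probe sets above the floor, all probe sets were above 0 in 272 and all below 0 in 155. Among all 5546 probe sets of members other than the brightest, 56.0% were above 0. The excess of 272 over 155 is not separate from that general lean and was not tested. The highest mean was that of Malat1 (1.15), followed by Gpcpd1, a glycerophosphodiesterase family gene (1.11, from 0.71 to 2.07). Gpcpd1 had mean responses of -0.54 in wild-type and 0.56 in knockout cells, and Hsd17b7, an enzyme of sterol synthesis (0.92, from 0.03 to 1.83), -0.10 and 0.81. Others, chosen after their values were seen, were Smc2, a condensin subunit (mean 0.95, from 0.65 to 1.18), Smc6, of the SMC5/6 complex (0.85, from 0.56 to 1.27), Rsrc2, an arginine and serine rich nuclear protein (0.90, from 0.63 to 1.33), and Mapk8, the kinase JNK1 (0.90, from 0.48 to 1.29). Smc2, Smc6, Rsrc2 and Mapk8 were lower after LPS in both genotypes on the mean of their probe sets, less so in knockout cells. The lowest mean was that of Hspa1b (-1.64), followed by Aplp2, an amyloid precursor-like protein (-0.77, from -1.30 to -0.24). Lists of chromatin modifiers and splicing factors had medians of -0.02 and 0.01 in the brightest probe sets, and 0.28 and 0.08 in the second, so the direction was not shared by either list as a whole.

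The 2 highest differences of all belonged to genes of low signal whose responses had opposite signs in the 2 genotypes. Hs3st2, a heparan sulfate sulfotransferase, stood at 9.27 and 7.19 unstimulated and at 7.91 and 8.14 after LPS (difference 2.31), on a probe set that can cross-hybridise. Ammecr1, a nuclear protein of unsettled function, stood at 8.76 and 7.72 unstimulated and at 7.24 and 8.38 after LPS (2.18). Zdhhc12, a palmitoyltransferase, had 1.83 and was low on 1 array, the unstimulated knockout (8.07, against 9.69, 9.27 and 9.48). Mpp5, a cell polarity scaffold, had 1.92 in its first and 0.11 in its second probe set. The chloride channel Ttyh3 had 1.56, with 10.00 and 9.74 unstimulated and 7.90 and 9.20 after LPS. The remaining genes of the 15 highest were Agap3 (1.499), the vesicle GTPase Rab3a (1.49), the ubiquitin ligase adaptor Spopl (1.48), the phosphatase Ctdspl (1.46), Scaper (1.42, second probe set 0.54) and the TFIID subunit Taf7 (1.37, second 0.57).

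The lowest differences were also mostly those of dim genes. Lsm7, a subunit of the ring that binds U6 RNA and decapping substrates, had the lowest, -1.79, from 8.57 and 9.30 unstimulated to 9.47 and 8.41 after LPS. Gstm3, a glutathione transferase, stood at 7.08 and 8.31 unstimulated and at 8.73 and 8.28 after LPS (-1.68), on a probe set shared with related genes. Hps5, a subunit of a lysosome biogenesis complex, stood at 8.38 and 8.73 unstimulated and at 8.96 and 7.68 after LPS (-1.62). Acp5, tartrate-resistant acid phosphatase, had -1.41 and was induced 4.20-fold in wild-type and 1.58-fold in knockout cells. Ctse, an aspartic protease, was low on the LPS knockout array (9.66, against 11.85, 10.98 and 11.86), a difference of -1.34 with 0.28 in its second probe set.

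The importin Ipo4 (-1.56) and the glucuronyltransferase B3gat3 (-1.33) kept their sign in the second probe set, at -0.65 and -0.64. Slc41a3, a magnesium transporter relative, had -1.60 in the first and 0.86 in the second. The endolysosomal channel Tpcn1 (-1.56), the Mediator subunit Med25 (-1.42), the helicase Rad54l2 (-1.39), perlecan, encoded by Hspg2 (-1.32), and the apoptotic nuclease subunit Dffb (-1.31) had 1 usable probe set each. Each of these had a mean signal in the dimmest of the 4 signal groups, where the scatter of 1 probe set was 0.44.

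The granule, oxidase and metabolic gene lists of neutrophils had small medians below 0, beside -0.02 for all members. The median of members also fell with signal, from 0.02 in the dimmest of the 4 signal groups to -0.05 in the brightest. The lists were not compared with genes of like signal. Of 12 primary granule genes 0 were called and the median was -0.06, with Mpo, myeloperoxidase, at -0.27. Of 17 secondary and tertiary granule genes 0 were called and the median was -0.04. The share called was 1.66% of all members, so 0 called in lists of this size says little. Of 19 NADPH oxidase and oxidative stress genes the 1 called was Slc7a11, and the median of -0.15 was not matched by the second probe sets (0.02). Of 16 glycolysis genes 4 were above 0 and 12 below, and the median was -0.14, with Pkm, pyruvate kinase, and Slc2a6, a lysosomal hexose transporter, both at -0.49. The second probe sets of 8 glycolysis genes had a median of -0.18, and the sign held under all 8 alternatives. Of 49 respiratory chain genes 14 were above 0 and 35 below, with a median of -0.10 and a narrow range from -0.31 to 0.22. Cytosolic ribosomal proteins had a median of -0.05 over 34 genes, and 11 housekeeping genes had -0.10. Regulators of G-protein signalling had -0.14, against 0.07 in the second probe sets of 9 genes (6 above 0), with the lowest value for Rgs14 at -0.93 (11.34 and 11.43 unstimulated, 11.75 and 10.92 after LPS) and Rgs10 at -0.81.

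Over all 35 lists, 730 of 942 symbols were members, and 6 were called higher and 3 lower (1.23%), a share near that of all members. The lists with the medians farthest from 0 that kept their sign under all 8 alternatives and in their second probe sets were the interferon-inducible GTPases, the unfolded protein response, the chaperones and the antiviral effectors. Their second probe sets covered 2, 12, 11 and 15 genes in that order, and the 2 of the GTPases gave 0.99 and 0.10. The medians of the cell cycle genes (-0.01 over 29), granulocyte transcription factors (0.08 over 22), Socs, Stat and growth factor receptor genes (-0.07 over 26), lysosome and autophagy genes (-0.11 over 28), adhesion and chemoattractant receptor genes (-0.03 over 19), prostaglandin and leukotriene enzymes (-0.07 over 12), itaconate, arginine and purine enzymes (-0.11 over 12) and circadian genes (0.09 over 11) lay near that of all members. Second probe sets had a median of the opposite sign for the Toll-like receptor, MAP kinase cascade, MAP kinase phosphatase, Socs and Stat, miR-125 target, oxidase, apoptosis, adhesion, G-protein, itaconate, antigen-processing and chromatin lists. The same held for the primary granule and prostaglandin lists, with second probe sets of 2 genes each. Over the second probe sets of all 3479 genes the median was 0.03, with 54.0% above 0. In the cell cycle list the second probe sets had a median of -0.18, with 15 of 20 below 0. The Socs and Stat, cell cycle, lysosome, adhesion and circadian medians changed sign under at least 1 alternative.

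**Figure D5:**
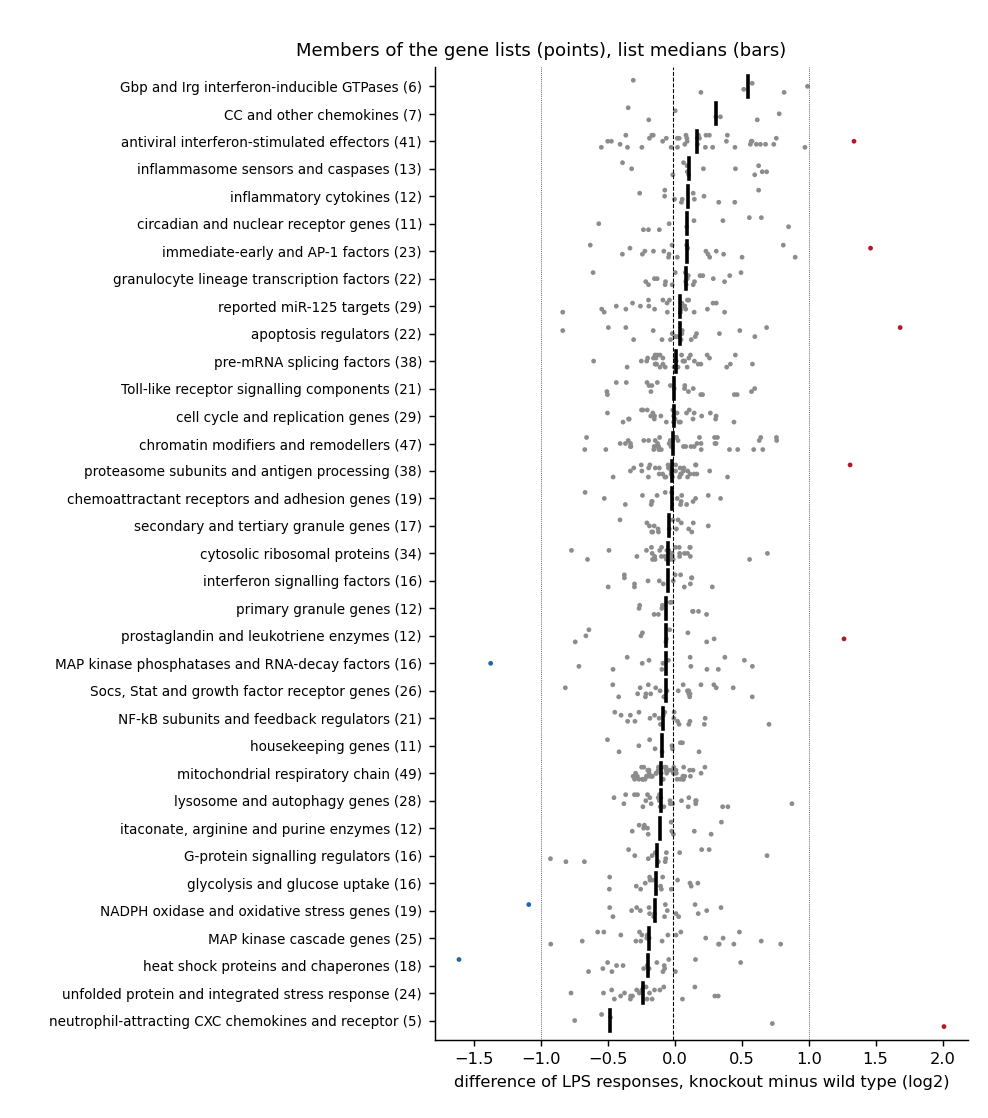
Difference of LPS responses (knockout minus wild type, log2; x axis) of the members of each gene list (rows, with the number of members in parentheses); points are genes, coloured where past 2-fold, black bars are list medians, the dashed line is the median of all 8156 genes and dotted lines mark 2-fold. Most list medians lie within 0.2 of 0, and the 9 coloured points are the called list members.

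Markers of other marrow cells were mostly under the floor on at least 1 array. Members were 7 of 14 matched monocyte and macrophage markers, 2 of 8 B cell, 2 of 10 T and NK cell, 2 of 9 erythroid, 2 of 9 platelet, 2 of 8 stem cell and 1 of 9 stroma markers, and 0 of these were called. The monocyte list had a median of 0.14, from -0.47 for Cd68 to 0.34 for Ccr2, and summed log2 levels of 14.58 and 14.59 unstimulated and 15.53 and 15.44 after LPS. Car2, an erythroid carbonic anhydrase, was nearest to a call at -0.90, with 10.48 and 11.19 unstimulated and 9.90 and 9.71 after LPS. In pooled bulk RNA, fewer cells of a type and less RNA per cell cannot be told apart, and the part of other cells in the differences above was not tested.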

How the data were processed

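The deposited table holds a log2 signal for each probe set on each array. The submitters' processing notes name MAS5 as the authors' tool, without version or target value. After unlogging, the signals had a trimmed mean of 500.003 or 500.004 on each array (2% removed at each end), and scaling of this kind removes any shift common to the majority of genes. MAS5 subtracts background array by array, and log2 values of dim probe sets scatter widely.

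Gene names came from the array platform's annotation. Of 45101 probe sets, 34945 had 1 symbol, 932 several and 9160 none, beside 64 controls. Each of 18193 genes was measured by its brightest probe set (highest mean over the arrays) and kept if above the 60th percentile of all values on all 4 arrays, which held for 8156. A further 1709 were above it on some arrays and were left out. Differences were called from 2-fold. With 1 array per group no p-value or spread between arrays was computed, and precision is limited by having so few arrays. The scatter of 1 probe set is the standard deviation of the difference between a gene's first and second probe sets, divided by the square root of 2.

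The genes, the 35 gene lists, the marker lists, the motifs and the rule for named genes were chosen with earlier results of these data known. Named genes were the 15 highest and 15 lowest called genes, passing over uncharacterised symbols, genes called in both probe sets, up to 5 called members of each list or else its 2 members farthest from 0, and Tnfaip3, Stat3, Socs3 and Spaca6; others are list members or were named after their values were seen. RefSeq's gene table (GRCm38.p6) held the Entrez identifiers of 34741 probe sets and changed 0 symbols. Alternatives were quantile normalization, centring on the median, other floors and folds, and other choices of probe set. The scripts were tested on simulated data and used Python 3.11.15, numpy 2.4.6 and pandas 2.3.3.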

Additional observations from a re-analysis of the deposited data

Results flagged for a closer look

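For 11 of the genes named by rule the LPS response had opposite signs in the 2 genotypes, each beyond the scatter of 1 probe set for a response (log2 0.42 in wild-type and 0.38 in knockout cells). Most of the 11 were named for a high or low difference of responses, so opposite signs follow in large part from that choice. With 1 array per genotype and time these differences were not tested. Above 0 in knockout and below 0 in wild-type cells were the responses of Hs3st2 (difference 2.31), Ammecr1 (2.18), Agap3 (1.499), Ctdspl (1.46) and Herc6 (1.34). Below 0 in knockout and above 0 in wild-type cells were those of Lsm7 (-1.79), Hps5 (-1.62), Slc41a3 (-1.60), Med25 (-1.42), Rad54l2 (-1.39) and B3gat3 (-1.33). A second probe set was above the floor for 3 of the 11: it gave the opposite sign for Slc41a3 (0.86) and Herc6 (-0.42) and the same sign for B3gat3 (-0.64). Smad7 (0.49 in wild-type, -0.55 in knockout cells) and Rbm19 (-0.50 and 0.54), named outside the rule, had opposite signs by the same measure. Among all called genes, responses of opposite sign and any size were found in 41 of 82 with the higher and 36 of 53 with the lower knockout response.

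Probe sets with no gene symbol lie outside the gene results. Of 1168 above the floor on all 4 arrays, 68 (5.82%) had a response at least 2-fold higher in knockout cells and 16 (1.37%) at least 2-fold lower, against 1.01% and 0.65% of the brightest probe sets of members. Together with probe sets of several symbols the shares were 4.58% and 1.41%. The median difference of the probe sets without a symbol was 0.13, and 19.6% of them were at least 2-fold lower after LPS on average. Their median log2 signal was 8.83 against 9.93 for the members' brightest probe sets. These differences were not tested.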

How the results depend on the processing

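The count of higher genes, 82, became 168 with the floor at the 50th percentile, 16 at the 75th, 2947 with no floor, 479 when called from 1.5-fold and 7 from 3-fold. The count of lower genes, 53, became 123, 12, 2756, 374 and 5 under the same settings, and 86 when 1 array above the floor sufficed. More or fewer genes enter under these floors by construction. List members called, 9, became 4 at the 75th percentile and 49 without a floor. The share of second probe sets with the same sign was 57.0% when the dimmest probe set was taken. The other 28 values of counts, shares and medians by response size stayed within 1.5 times (counts), the scatter of 1 probe set (medians) or a binomial interval (shares). The limit for medians, 0.32, is wider than the medians it was applied to, -0.08 and 0.19. Those medians could hardly fail it, and nothing is concluded from their staying within it. Quantile normalization kept 110 of the 131 called genes still present, centring 125 of 134, and averaging over probe sets 103 of 135. The sign of Dusp16 reversed (1.13) without probe sets that are shared or can cross-hybridise, since another probe set then stands for the gene. Of the other values, for single genes and lists, 68 moved by more than the scatter of 1 probe set or the list's limit and 1070 did not. For single genes a change of floor leaves the probe set and its signals as they were. Many of the 1070 were therefore unmoved by construction and are no measure of robustness.

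No paired analysis was possible because each group has 1 array and the columns carry no replicate numbers, and leaving out an array was not possible for the same reason. Dim signals, pooled RNA and 1 array per group limit every value, and the scatter of probe sets does not cover the spread between experiments.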

Other observations

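Other probe sets of the member genes, beyond the brightest, had more differences past 2-fold than the brightest. Of 5546 such probe sets above the floor, 140 (2.52%) were higher in knockout cells and 51 (0.92%) lower, with a median of 0.05. Their median log2 signal was 9.06. Those at least 2-fold lower after LPS, 574 probe sets, had a median difference of 0.30, and the corresponding probe sets without a gene symbol, 229, had 0.46, against 0.19 for the 642 members.

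The cell cycle list had a median near 0 (-0.18 in its second probe sets), and a pair of cell division genes outside it was called higher. Ncapg, a condensin subunit, stood at 10.34 and 10.15 unstimulated and at 8.87 and 9.95 after LPS (difference 1.28, second probe set 0.83). Ska3, of the kinetochore, had 1.20. These were picked out after the values were seen.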
